A study of Sus scrofa domesticus with 150 samples.

Results

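Edge and center of porcine skin wounds were compared on days 19 and 21 after wounding, the last days sampled. These days gave 12 of the 150 samples: 6 of the wound edge and 6 of the wound center, 1 of each from 6 wounds in 6 animals. Day 19 was sampled in the animals numbered 1326, 1327 and 1328 and day 21 in the animals 1323, 1324 and 1325, so that the day cannot be told apart from the set of animals. The pigs were female and of a Yorkshire mix. A circular piece of skin was excised through its full thickness, the wound was dressed, and small punch biopsies were taken at the edge and in the center. The wounds had no other treatment apart from a topical antibiotic on biopsy sites, and a wound left the experiment once it had been sampled. In all animals the wound sampled on days 19 and 21 was the one lettered I, while days 15 and 16 were sampled in wound D and days 11 and 13 in wounds C and J, so that time cannot be told apart from the place of the wound on the animal. The day 0 samples used for reference are the skin excised from the same 6 animals. The comparison asks which differences between edge and center remained as the wounds closed.

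A skin wound closes from its margin. Keratinocytes move inward from the edge and then stratify again behind the front, while the bed fills with granulation tissue, a vessel-rich matrix with macrophages and fibroblasts that is later remodeled into scar. Hair follicles and glands lie in the skin beside the wound, and the healed center commonly lacks them. A biopsy holds all of these cells, and in such bulk samples fewer cells of a type and less RNA per cell cannot be told apart.

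The total count per sample was between 16337912 and 19645023 at the edge and between 16369621 and 19100371 in the center. A floor of 3 counts corresponded to between 0.153 and 0.184 CPM per sample, relative to the total count without TMM scaling. It covers counting error only. The other CPM values are counts relative to the TMM-scaled library size, so that the floor is approximate on their scale. The keratinocyte markers KRT1, KRT10 and DSG1 were counted in every sample, and 1 sample stood apart from the other 5 of its location. The center of the day 19 wound of animal 1327 held 174 CPM of KRT10, the keratin of the layers above the basal one, where the other 5 centers held 4374 to 23364 CPM. The 18 measured genes of suprabasal differentiation summed to 3150 CPM in that sample and to between 19264 and 57847 CPM in the other 5 centers. Without this wound, values are also given for KRT77, KRT10, LAMB3, KRT6C and the epidermal lists.

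Edge and center of a wound were more alike on days 19 and 21 than on days 11, 13, 15 and 16. Over 14083 genes, the median absolute difference between the edge and the center of a wound, on the log2(CPM + 1) scale, was 0.199 in animal 1326, 0.296 in 1327 and 0.274 in 1328 on day 19, and 0.262 in animal 1323, 0.295 in 1324 and 0.214 in 1325 on day 21. On days 15 and 16 the same animals gave values from 0.327 to 0.477, and the late values lay below all of them. The late value was lower in 6 of 6 animals, by 0.139 ± 0.0697 (SD, n = 6 animals) against days 15 and 16 and by 0.130 ± 0.0515 against days 11 and 13. In a two-sided exact permutation test that flips the sign of each animal's difference, p was 0.03125 in both comparisons (adjusted p = 0.03125), the smallest value that 6 animals can give. Different animals compared at the same location gave medians of a similar size on these days, between 0.248 and 0.345 for the edges of day 19, between 0.270 and 0.309 for its centers, between 0.223 and 0.309 for the edges of day 21 and between 0.253 and 0.300 for its centers. On day 3 single wounds had lower values, down to 0.112, so that the late wounds were not the lowest of the series. The lowest wounds of days 6 and 7 had 0.209 and 0.186. The median of day 3 was 0.287, beside 0.274 on day 19 and 0.262 on day 21. Days before day 11 were not tested against the late days.

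**Figure D1:**
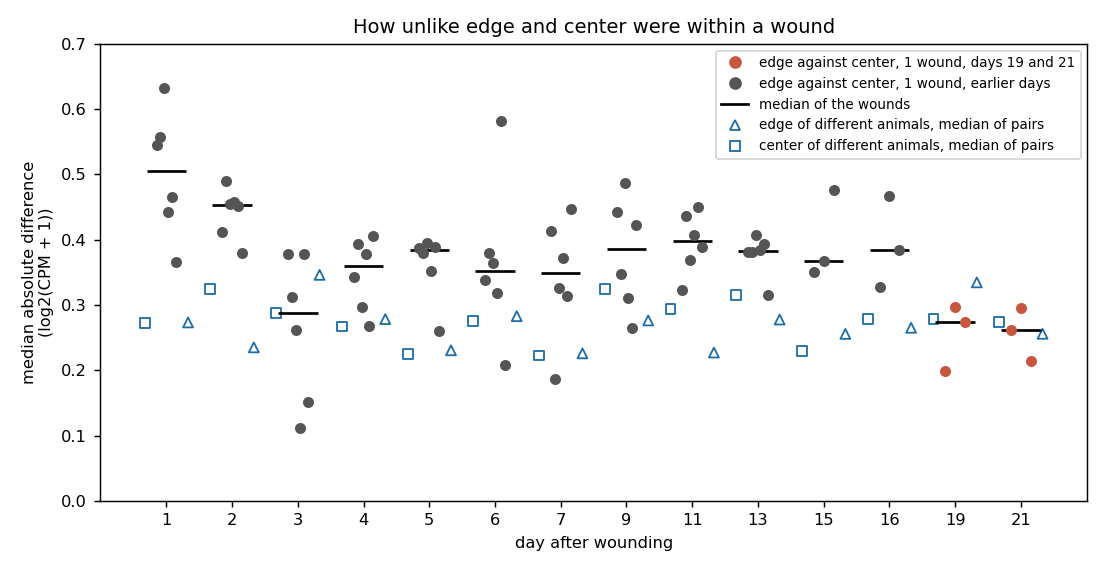
Each filled point is 1 wound, placed by the day after wounding (x axis) and by the median absolute difference between its edge and center over 14083 genes (y axis, log2(CPM + 1)); bars are medians of the wounds of a day, and open triangles and squares are medians over pairs of animals at the same location. The 6 wounds of days 19 and 21 lie between 0.199 and 0.296, below all 6 wounds of days 15 and 16.

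With the edge and center of a wound kept together as a pair, 9 of 14350 genes (0.0627%) differed between the locations by edgeR's quasi-likelihood test at an adjusted p below 0.05, 5 of them (0.0348% of those tested) higher at the edge and 4 (0.0279%) higher in the center. Before adjustment 1832 genes (12.8%) had a p below 0.05, 923 (6.43%) with the edge and 909 (6.33%) with the center higher, and these 2 shares are the background for the gene groups below. Scaled by library size alone they were 671 (4.68%) and 1278 (8.91%). In the same test 6609 of 14360 genes (46%) differed on days 15 and 16, 3303 (23.0%) with the edge and 3306 (23.0%) with the center higher, and 7900 of 15400 (51.3%) on days 11 and 13, where the 2 wounds of an animal were summed. The 9 late genes all differed in both earlier periods, in the same direction. The number rests on single wounds and on the test: it was 0 without the day 19 wound of animal 1328 or the day 21 wound of animal 1325, between 5 and 7 without one of the other 4 wounds, with 2 or 3 of the 9 among them, and 493 with DESeq2, which called all 9 as well. For the 9 genes the direction stayed the same in each of these fits.

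HSD17B2 (ENSSSCG00025042197), an enzyme that inactivates estradiol and testosterone, had the smallest p of the 9. It was at 0 to 0.919 CPM in the 6 centers (median 0.375) and at 1.04 to 19.8 CPM at the 6 edges (median 7.89), and the groups did not overlap. Its log2 fold change was 4.37 ± 0.38 (SE, adjusted p = 0.0137), and in day 0 skin it stood at 44.0 to 106 CPM, above both locations. KRT77 (ENSSSCG00025057592), a keratin of the suprabasal epidermis and of sweat ducts, was at 0.0665 to 13.4 CPM in the centers (median 5.93) and at 3.64 to 446 CPM at the edges (median 52.4). Here too the lowest center value lay below that floor. The edge was higher in each wound although the groups overlapped, with a log2 fold change of 3.97 ± 0.49 (adjusted p = 0.0362). Its level differed by day as well as by location: the edges held 3.64, 4.21 and 19.7 CPM on day 19 and 85.1, 446 and 246 CPM on day 21, while day 0 skin held 731 to 1653 CPM. Without the day 19 wound of animal 1327 the log2 fold change was 3.93, with an adjusted p of 0.0557.

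FREM1 (ENSSSCG00025047435), a basement membrane protein that helps to hold epidermis and dermis together, was at 0.484 to 5.05 CPM in the centers (median 1.05) and at 2.63 to 13.6 CPM at the edges (median 9.16). The log2 fold change was 2.49 ± 0.33 (adjusted p = 0.0430), and the upper edge values reached those of day 0 skin, 6.37 to 10.8 CPM. ADCY2 (ENSSSCG00025014236), an adenylyl cyclase that makes cyclic AMP, was at 1.09 to 8.16 CPM in the centers (median 4.34) and at 5.26 to 24.4 CPM at the edges (median 21.8). Its log2 fold change was 1.99 ± 0.24 (adjusted p = 0.0362), and 4 of the 6 edges lay above the day 0 range of 6.85 to 15.4 CPM. CEACAM20 (ENSSSCG00025050383), a cell surface protein of the CEA family, was at 0.997 to 3.90 CPM in the centers (median 2.87) and at 2.50 to 14.2 CPM at the edges (median 9.32). The log2 fold change was 1.68 ± 0.21 (adjusted p = 0.0362), and the edge was higher in 6 of 6 wounds, as for all 5 genes of this direction.

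In the center, SFRP2 and the 3 genes of complement component C1q were higher. SFRP2 (ENSSSCG00025046870), a secreted modulator of WNT signaling that fibroblasts make, was at 141 to 453 CPM in the centers (median 328) and at 39.0 to 228 CPM at the edges (median 63.4). The groups overlapped through the day 19 wound of animal 1326, whose edge held 228 CPM, and through the day 19 wound of animal 1328, whose center held 141 CPM. The log2 fold change was -2.0 ± 0.24 (adjusted p = 0.0362), and day 0 skin held 7.59 to 25.3 CPM, below every late sample. C1QA (ENSSSCG00025027898), C1QB (ENSSSCG00025027715) and C1QC (ENSSSCG00025027850) encode the 3 chains of C1q, which macrophages secrete and which starts the classical complement pathway. C1QB was at 183 to 303 CPM in the centers (median 249) and at 114 to 184 CPM at the edges (median 130), so that the ranges overlapped narrowly. C1QC had medians of 307 CPM in the centers and 163 CPM at the edges, and C1QA had 240 and 130 CPM. The log2 fold changes were -0.79 ± 0.10 for C1QA, -0.82 ± 0.10 for C1QB and -0.82 ± 0.10 for C1QC, each with an adjusted p of 0.0362 and with the center higher in 6 of 6 wounds. In day 0 skin the highest value of any of the 3 was 87.3 CPM. The genes lie side by side, with C1QB starting at base 8113464 and C1QA ending at base 8134648 of the same contig.

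**Figure D2:**
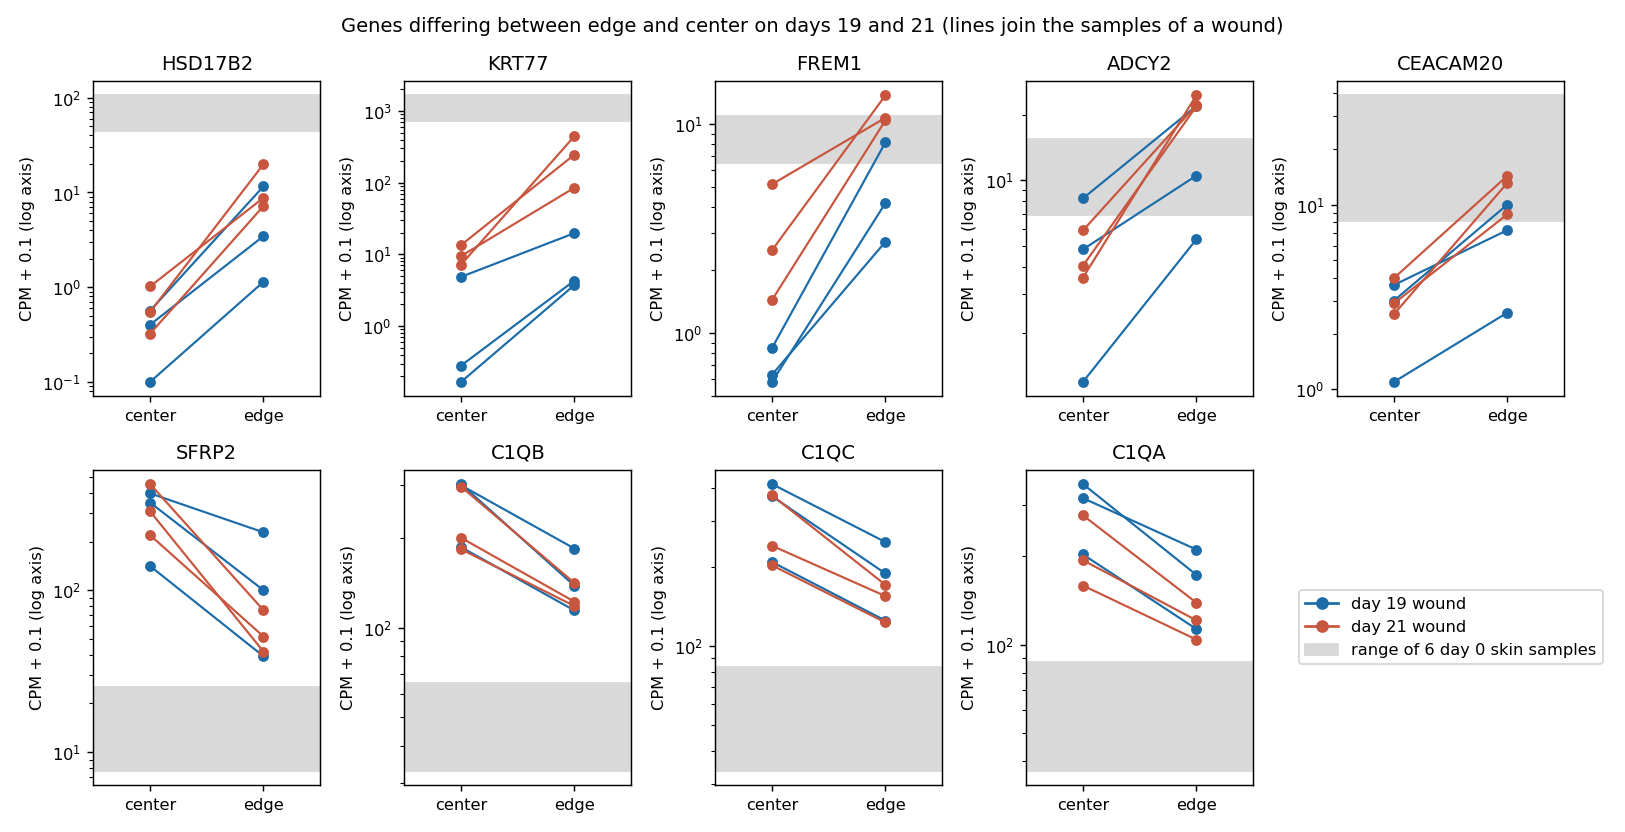
Each panel is 1 of the 9 genes that differed between the locations on days 19 and 21, with CPM + 0.1 on a log axis for the center and the edge of each wound, a line joining the samples of a wound, and a gray band for the range of the 6 day 0 samples. Every line runs up from center to edge for the 5 genes of the upper row and down for SFRP2 and the 3 C1q genes; the C1q genes and SFRP2 lie above the day 0 band at both locations.

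The genes next in order of p did not pass the threshold. ACAN, which encodes the cartilage and tendon proteoglycan aggrecan, was at 2.13 to 12.9 CPM in the centers and at 13.8 to 60.4 CPM at the edges, and the groups did not overlap. Its log2 fold change was 2.08 ± 0.28, with an adjusted p of 0.0515. PLVAP, a protein of the endothelium's diaphragms, had medians of 191 CPM in the centers and 134 CPM at the edges (log2 fold change -0.62 ± 0.10, adjusted p = 0.146). TUSC3, a subunit of the complex that adds sugars to proteins in the endoplasmic reticulum, was at 26.4 to 35.7 CPM in the centers and at 9.79 to 23.1 CPM at the edges, again without overlap (log2 fold change -0.82 ± 0.14, adjusted p = 0.160).

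The genes that had differed on days 15 and 16 mostly kept their sign, with smaller values. Of the 3303 genes higher at the edge on those days, 3240 were tested late, 3036 of them (93.7%) with the edge still higher, and their median log2 fold change was 0.84 then and 0.24 late. Of the 3306 genes higher in the center, 3256 were tested late and 2933 (90.1%) kept the sign, with medians of -0.74 then and -0.20 late. The edge was higher in 6 of 6 wounds for 443 genes of the former group (13.7%), where 4.01% of all genes tested had this pattern, and the center was higher in 6 of 6 wounds for 389 of the latter (11.95%), where the share of all genes was 3.74%. At least 2-fold differences became rarer: of 1368 genes that had been at least 2-fold higher at the edge 288 still were, and of 1053 that had been at least 2-fold higher in the center 67 still were. These genes were chosen for their difference on the earlier days, so that smaller values elsewhere are in part built into the choice. Over all genes tested the median absolute log2 fold change went from 0.38 to 0.15.

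**Figure D3:**
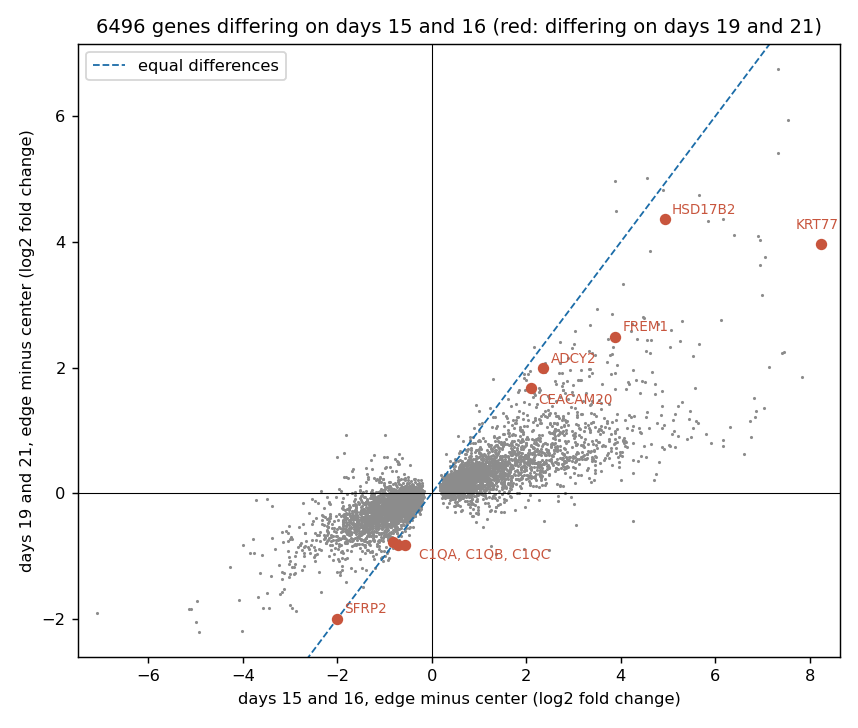
Each gray point is 1 of 6496 genes that differed between edge and center on days 15 and 16 and were tested on days 19 and 21, placed by its log2 fold change on the earlier (x axis) and the later days (y axis), with positive values where the edge was higher; red points are the 9 genes that differed late. Most points lie between the horizontal axis and the dashed line of equal differences, while SFRP2, the C1q genes and ADCY2 lie close to that line.

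The change itself was tested as the interaction of location and period. Against days 15 and 16, the difference between edge and center had changed in 847 of 15198 genes (5.57%), 546 of them (3.59% of those tested) toward the edge and 301 (1.98%) toward the center. Scaled by library size alone these were 310 and 301. In 832 of the 835 genes with a value in both periods the late difference was the smaller, with a median absolute log2 fold change of 1.27 then and 0.28 late. The 3 genes with the larger late value were PDE9A, LRRC3B and DKKL1, named after their values were seen, and none of them differed in either period alone. Against days 11 and 13, 2955 of 15802 genes (18.7%) had changed, and the late difference was smaller in 2802 of the 2861 with both values. The count against days 15 and 16 depended on single wounds: it was 0 without the day 21 wound of animal 1325 and 7 without the day 19 wound of animal 1326, with 3305 and 3339 genes below 0.05 before adjustment, where all wounds gave 4058 (26.7%). Without the wound of animal 1325, none of the genes named below for a change since days 15 and 16 passed the threshold.

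Of the 9 late genes, KRT77 was the one whose difference had become smaller since days 15 and 16, from a log2 fold change of 8.24 to 3.97 (adjusted p of the change = 0.0219). For HSD17B2 (4.93 then), FREM1 (3.89), ADCY2 (2.36), CEACAM20 (2.10), SFRP2 (-2.01), C1QA (-0.83), C1QB (-0.58) and C1QC (-0.72) the change was not past the threshold, with adjusted p from 0.124 to 0.975. The difference of SFRP2 had instead grown since days 11 and 13, when its log2 fold change was -0.92 (change -1.04 ± 0.31, adjusted p = 0.0337).

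The genes with the smallest adjusted p for the change had all but lost their difference. ANGPTL1, a secreted relative of the angiopoietins, had medians of 38.1 CPM at the edge and 18.0 CPM in the center on days 15 and 16, and of 47.9 and 55.7 CPM late (change -1.50 ± 0.18, adjusted p = 0.0114). PREX1, an activator of the GTPase Rac in leukocytes, had been higher in the center, 119 against 39.5 CPM, and late had 67.6 and 57.3 CPM (change 1.28 ± 0.16, adjusted p = 0.0114). KIF21B, a kinesin, and MICAL1, an oxidase that takes actin filaments apart, went the same way, with changes of 1.04 ± 0.14 and 1.09 ± 0.14 (adjusted p = 0.0114 for both). A cytochrome P450 gene matched to CYP4F6 went from medians of 13.1 and 3.26 CPM at edge and center to 9.17 and 7.92 CPM (change -2.08 ± 0.27, adjusted p = 0.0114). Without the day 21 wound of animal 1325 the adjusted p of all 5 genes was 0.0533, and without the replicate block that of ANGPTL1 was 0.175. Against days 11 and 13 the 5 leading genes were LYPD2 (-3.33 ± 0.31), NUP210 (2.29 ± 0.22), ELFN2 (-4.42 ± 0.42), EMILIN2 (1.31 ± 0.13) and PALMD (-1.90 ± 0.19), with adjusted p from 0.000434 to 0.000595. EMILIN2, an extracellular glycoprotein, shows the pattern: the center held a median of 441 CPM and the edge 156 CPM on days 11 and 13, and late they held 181 and 156 CPM.

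The difference of suprabasal differentiation genes between edge and center was smaller late than on days 15 and 16, and it was largest in the wound of animal 1327. All 18 measured genes of suprabasal differentiation were tested, and 12 of them had been higher at the edge on days 15 and 16, with a median log2 fold change of 4.45 over the list. Late the median was 0.60, KRT77 was the only one to pass the threshold and also the only one with a p below 0.05 before adjustment. KRT10 was at 174 to 23364 CPM in the centers (median 18741) and at 9963 to 33362 CPM at the edges (median 18973), and in day 0 skin the median was 17815 CPM. Its log2 fold change was 0.90 ± 0.81 (adjusted p = 0.709), against 6.76 ± 1.18 on days 15 and 16 (adjusted p of the change = 0.0480). KRT1, its partner, KRT2, a keratin of the uppermost living layers, and KRT77 were the other members whose difference had changed, all toward the center. On day 19 alone the median of the list was 1.74, with 6 of the 18 genes at a p below 0.05 before adjustment toward the edge (3.62% of all genes). On day 21 alone it was -0.06, with 2 toward the edge (5.62% of all genes) and 3 toward the center (5.42%). The day 19 values include the wound of animal 1327. By wound, the mean difference of the list (log2(CPM + 1)) was 0.91, 3.59 and 0.35 in animals 1326, 1327 and 1328 on day 19. On day 21 it was 0.56, 0.02 and -0.03 in animals 1323, 1324 and 1325. The change between the days passed the threshold for 0 of the 18 genes. Without the wound of animal 1327, the late median of the list was 0.12 and KRT10 had a log2 fold change of 0.30.

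Genes of the basal layer and its anchorage to the dermis had small differences late. Of the 11 tested, 0 passed the threshold and 4 had a p below 0.05 before adjustment, all with the center higher, and the median log2 fold change was -0.13. Without the day 19 wound of animal 1327 there were again 4, with a median of -0.11, and without the day 21 wound of animal 1325 there were 2. LAMB3, a chain of an adhesion protein of the basement membrane, was higher in the center in 6 of 6 wounds, with a log2 fold change of -0.54 ± 0.11 (adjusted p = 0.166). Without the wound of animal 1327 it was -0.53 (adjusted p = 0.225). The list of stress keratins and alarmins is a limited one, since 6 of its 13 genes were found in the table. KRT6C, a keratin made in wounded and thickened epidermis, was at 2324 to 26155 CPM in the centers (median 5748) and at 317 to 27312 CPM at the edges (median 1500), with a log2 fold change of -1.44 ± 0.48 (adjusted p = 0.274). Without the wound of animal 1327 it was -1.76 (adjusted p = 0.263). The median of the 6 genes was -0.56, and -0.27 without that wound. The summed level of the 6 genes was 1348, 381 and 674 CPM at the day 21 edges and 10955, 3199 and 2604 CPM in the centers of the same wounds, while day 0 skin held 506 to 1300 CPM. The day 21 edges thus lay at or near the day 0 range and the centers above it, whereas on day 19 edge and center held 2249 to 32569 and 3412 to 30252 CPM.

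**Figure D4:**
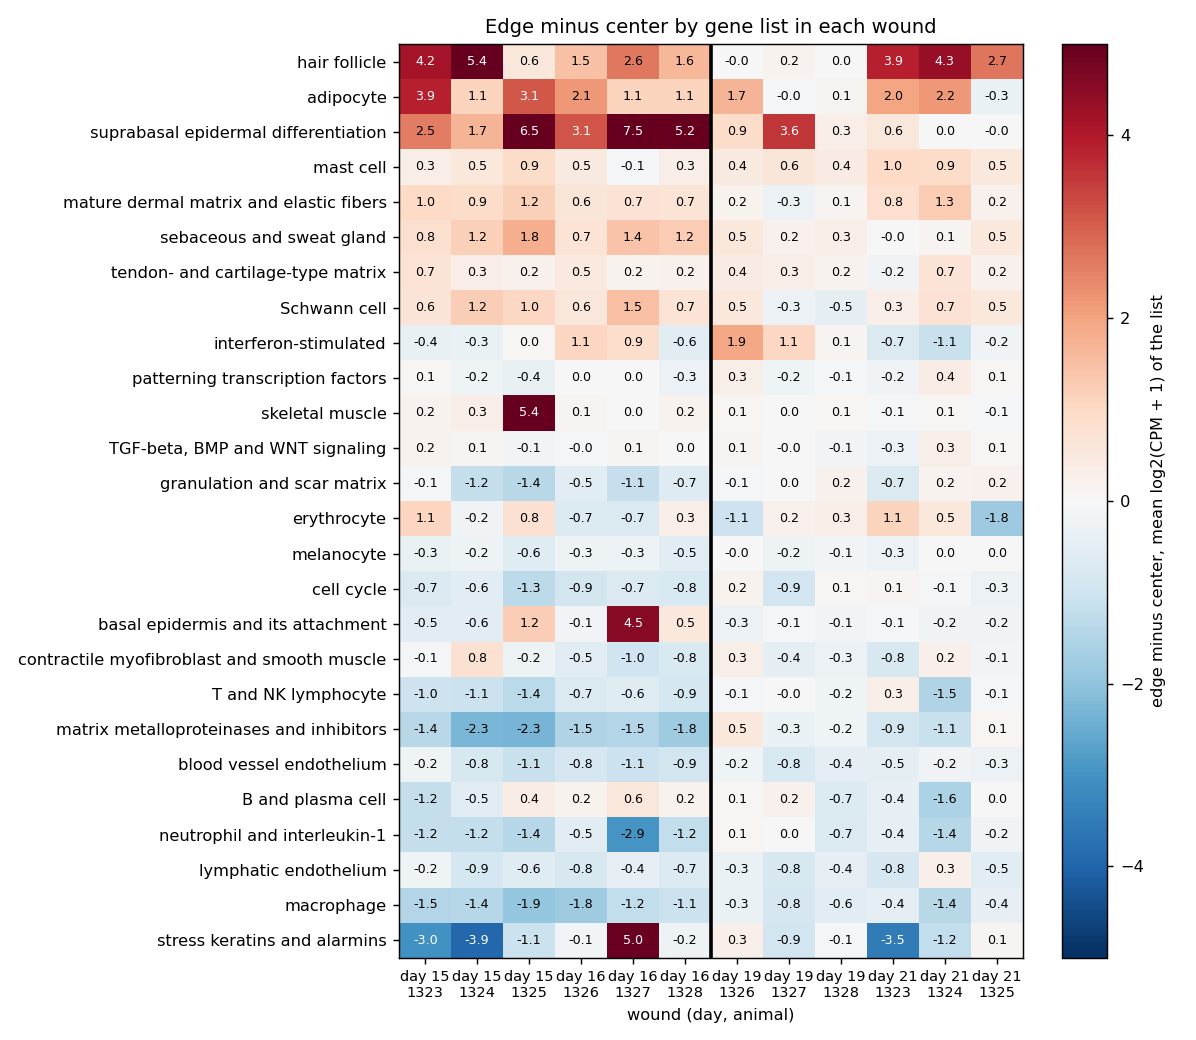
Each cell is the mean over a gene list of edge minus center, on the log2(CPM + 1) scale, in 1 wound (columns, days 15 and 16 left of the line and days 19 and 21 right of it), with red where the edge was higher. The late columns are paler than the earlier ones for suprabasal differentiation (4.42 ± 2.32 then and 0.90 ± 1.36 late, SD, n = 6 wounds), blood vessel and macrophage genes are blue in all 12 wounds, and hair follicle genes are red in the 3 wounds of day 21.

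Hair follicle genes were present at the edges of day 21 and nearly absent everywhere else among the late samples. The 21 measured genes of the list summed to 2147, 3776 and 1014 CPM at the day 21 edges of animals 1323, 1324 and 1325, to 36.9, 51.8 and 32.9 CPM in the centers of these wounds, to 21.4, 59.7 and 33.2 CPM at the day 19 edges and to 15.5 to 31.6 CPM in the day 19 centers. Day 0 skin ranged from 176 to 20089 CPM. On days 15 and 16 the edges held 34.0 to 7518 CPM, so that edges with and without follicle genes occurred then too. KRT71 and KRT27, keratins of the inner root sheath, were at 405 to 1069 and 389 to 1136 CPM at the day 21 edges and at 3.68 CPM or less and 3.34 CPM or less in the 6 centers. Trichohyalin, TCHH, a structural protein of the same sheath, was at 39.8 to 198 CPM at the day 21 edges and at 0 at the 3 edges of day 19. Because these genes were high in 3 samples alone, 8 of the 21 passed the filter on low counts in the comparison of both days together, a selection that favors members with a difference, and 0 of them passed the threshold, with 5 at a p below 0.05 before adjustment (3 to 8 without one wound). On day 21 alone 19 were tested and 13 passed the threshold with the edge higher (0.383% of all genes). Of these 19, 17 had a p below 0.05 before adjustment, and the median log2 fold change was 7.25. Members could enter this fit through the 3 edges where they were high, so the same selection applies to these counts and to the median. It applies as well to a filter on the mean CPM. With both days and a mean of at least 1 CPM as the filter, 5 of 17 passed (0.240% of all genes). With no filter 11 of 21 did (0.648%).

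**Figure D5:**
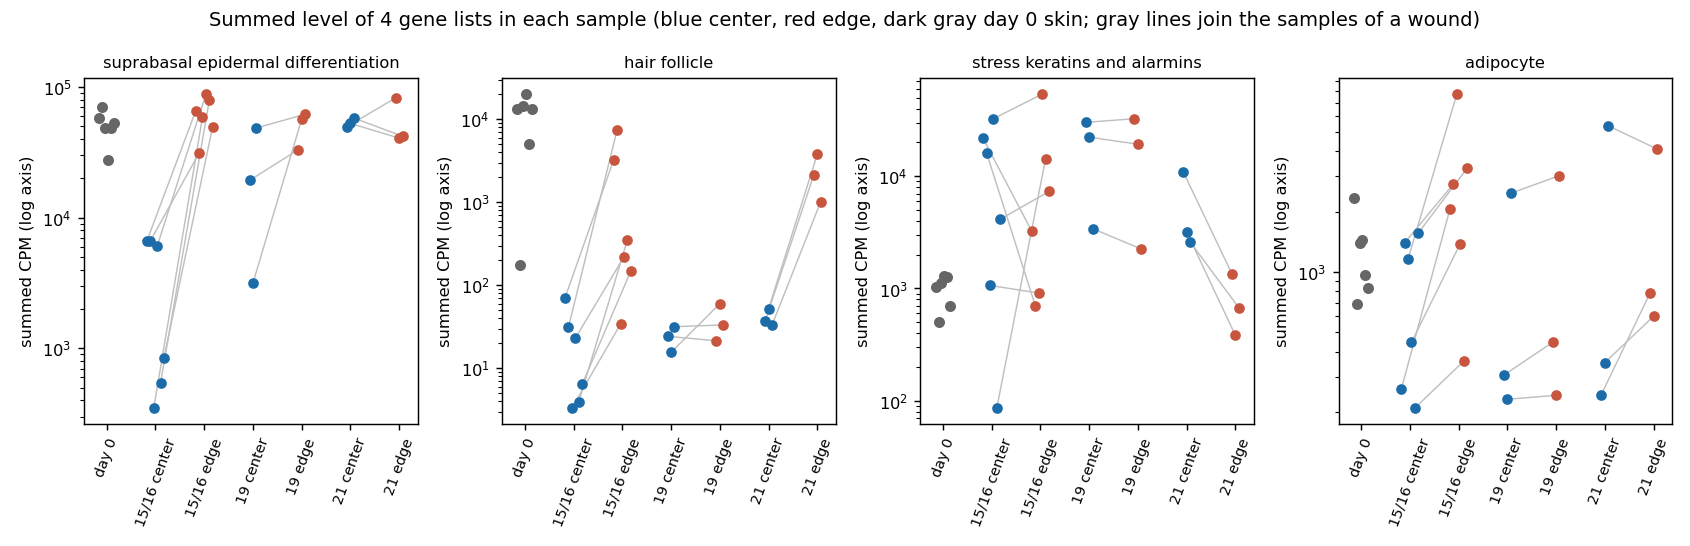
Summed CPM (log axis) of 4 gene lists in each sample of day 0, of days 15 and 16, of day 19 and of day 21; blue points are centers, red points edges and dark gray points day 0 skin, and gray lines join the samples of a wound. Suprabasal genes reach 19264 CPM or more in 5 of 6 late centers, and hair follicle genes exceed 1000 CPM at the 3 edges of day 21. Adipocyte genes are higher at the edge in 6 of 6 wounds of days 15 and 16. On days 19 and 21 they are highest at both locations in the wounds of animals 1328 and 1325.

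The change from day 19 to day 21 passed the threshold for 2 of 15281 genes (0.0131%), and both belong to hair. KRT34, a keratin of the hair cortex, was at 0.270, 0.0658 and 0.0610 CPM at the day 19 edges and at 88.2, 6.48 and 14.4 CPM at the day 21 edges, with 0 to 2.72 CPM in the centers (log2 difference between the days 12.25, adjusted p = 0.00803). The values of 0.0658 and 0.0610 CPM and the lowest center value lay below the floor of 3 counts. The size of 12.25 is therefore poorly determined. S100A3, a calcium-binding protein of the hair cuticle, was at 0.658 to 0.742 CPM at the day 19 edges and at 98.5, 150 and 10.7 CPM at the day 21 edges (log2 difference 6.73, adjusted p = 0.00977). Before adjustment 680 genes (4.45%) had a p below 0.05. Without the day 21 wound of animal 1323 the count was 0, and without that of animal 1325 it was 13. Of the 19 hair follicle genes tested in this comparison, 0 passed the threshold, among them KRT85 (log2 difference 12.83, adjusted p = 0.465). Genes could enter this fit through the 3 edges of day 21 where they were high, a selection that favors a difference between the days. It applies to KRT34 and to members of the 19, so these are not independent evidence of a change in hair genes.

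Other structures of the skin beside the wound gave weaker contrasts. Adipocyte genes had a median log2 fold change of 1.24 over 10 genes (2.74 on days 15 and 16), with 0 past the threshold and 2 at a p below 0.05 before adjustment, LEP and DGAT2. That number was 0 without the wound of animal 1326, 1323 or 1324, 3 without that of 1328, 4 without that of 1327 and 5 without that of 1325. Their summed level was highest at both locations of the wounds of animals 1328 and 1325. It was 3027 and 2470 CPM at edge and center in animal 1328 and 4115 and 5368 CPM in animal 1325. In the 8 samples of the other 4 animals it was 231 to 785 CPM. With 1 late wound per animal, animal and wound cannot be told apart. Of 9 sebaceous and sweat gland genes 0 passed the threshold, and the median log2 fold change was 0.11. Before adjustment 2 had a p below 0.05 toward the edge and 1 toward the center. SOAT1 leaned to the center (log2 fold change -0.71, adjusted p = 0.215). SCNN1B, a subunit of the epithelial sodium channel, was higher at the edge in 6 of 6 wounds (log2 fold change 0.65 ± 0.20, adjusted p = 0.244). Among 7 Schwann cell genes the neuregulin receptor ERBB3 (0.65 ± 0.22, adjusted p = 0.271) was higher at the edge in every wound, and the list's median was 0.47 against 2.03 before.

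Genes of blood vessels and macrophages made up the broadest leaning to the center. Of the 17 blood vessel endothelial genes, 0 passed the threshold, but 13 had a p below 0.05 before adjustment with the center higher, and 0 with the edge higher, where 6.33% of all genes had such a p toward the center. The median log2 fold change was -0.44 over the list and 0.01 over all genes. Without one wound at a time the number with such a p was 10 to 12. PECAM1, an adhesion molecule of the endothelium, was at 282 to 463 CPM in the centers (median 340) and at 224 to 285 CPM at the edges (median 253), with a log2 fold change of -0.44 ± 0.10 (adjusted p = 0.182). CDH5, the cadherin of endothelial junctions, had medians of 146 and 107 CPM (-0.52 ± 0.09, adjusted p = 0.161), and APLNR, the receptor of apelin, had medians of 121 and 71.5 CPM (-0.78 ± 0.14, adjusted p = 0.161). The summed level was 1146 to 1767 CPM in the centers, 796 to 1187 CPM at the edges and 428 to 688 CPM in day 0 skin, so that both locations lay above unwounded skin. KDR, a receptor of VEGF, was the 1 member whose difference had become smaller since days 15 and 16 (-1.16 then and -0.39 late, adjusted p of the change = 0.0295). LYVE1, a hyaluronan receptor of lymphatic vessels and of some macrophages, had a log2 fold change of -0.93 ± 0.19 (adjusted p = 0.161), and 3 of 6 lymphatic genes had a p below 0.05 before adjustment toward the center. That number was 1 without the wound of animal 1326, 1328, 1323 or 1325, 2 without that of 1327 and 5 without that of 1324.

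Of the 13 macrophage genes, the 3 C1q genes passed the threshold and 10 in all had a p below 0.05 before adjustment, each with the center higher. All 13 had been higher in the center on days 15 and 16, when the median log2 fold change was -1.55, and late the median was -0.75. Without one wound at a time the number with such a p was 9 or 10, while 0 of the 13 passed the threshold in each of these 6 fits. The summed level was 1068 to 2300 CPM in the centers (median 1415), 691 to 1725 CPM at the edges (median 840) and 269 to 536 CPM in day 0 skin, and the center was higher in each wound. TREM2, a lipid receptor of phagocytes, was at 9.64 to 40.0 CPM in the centers (median 14.2) and at 3.68 to 12.3 CPM at the edges (median 5.83), with a log2 fold change of -1.25 ± 0.26 (adjusted p = 0.166). For CD163, CD14 and CSF1R, a scavenger receptor, a receptor of lipopolysaccharide and the receptor of the growth factor CSF1, the difference had become smaller since days 15 and 16, with log2 fold changes of -1.55, -1.66 and -1.16 then and -0.60, -0.57 and -0.41 late (adjusted p of the change = 0.0219, 0.0295 and 0.0286). The C1q differences were -0.83 to -0.58 then and -0.82 to -0.79 late. Whether their change differed from that of these 3 genes was not tested.

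The lists of lymphocytes, neutrophils and plasma cells had smaller shares with a p below 0.05 before adjustment than the macrophage list. Of 12 T and NK lymphocyte genes, 10 had been higher in the center on days 15 and 16, and late 0 passed the threshold and 1 had a p below 0.05 before adjustment. That gene was NKG7 of cytotoxic granules (-0.54 ± 0.20, adjusted p = 0.302). The medians of the list were -1.21 then and -0.20 late. Of 9 neutrophil and interleukin-1 genes 0 passed the threshold, and CXCL8, which attracts neutrophils, was at 5.90 to 199 CPM in the centers and at 0.755 to 85.3 CPM at the edges (-2.05 ± 0.88, adjusted p = 0.376). IL1B, an early inflammatory cytokine, was at 0.111 to 2.43 CPM in the centers and at 0 to 5.06 CPM at the edges, too low to be tested. Of 6 B and plasma cell genes 0 passed the threshold. Before adjustment 2 of the 6 had a p below 0.05 toward the center (6.33% of all genes), with a median log2 fold change of -0.65. Among the 9 neutrophil and interleukin-1 genes 2 had such a p toward the center and 1 toward the edge (6.43% of all genes), with a median of -0.64. Without one wound at a time, the numbers toward the center were 0 to 2 for B and plasma cell genes and 0 to 3 for neutrophil and interleukin-1 genes.

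Mast cell genes leaned the other way. Of the 5 tested, 0 passed the threshold and 3 had a p below 0.05 before adjustment, all with the edge higher, where the share of all genes was 6.43%. The summed level was 43.0 to 86.3 CPM at the edges and 36.7 to 49.3 CPM in the centers, with the edge higher in 6 of 6 wounds. MS4A2 and FCER1A, chains of the high-affinity IgE receptor, had log2 fold changes of 0.91 ± 0.17 (adjusted p = 0.161) and 1.40 ± 0.30 (adjusted p = 0.168). On days 15 and 16 these were 0.55 and 0.94, and their change was not past the threshold (adjusted p = 0.280 and 0.507).

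Late matrix genes went in both directions. Of 18 granulation and scar matrix genes, 12 had been higher in the center on days 15 and 16 and the median log2 fold change went from -1.02 to -0.01. Late, 2 genes had a p below 0.05 before adjustment toward the edge and 4 toward the center. Without animal 1323 there were 5 toward the edge, and without animal 1325 there was 1 toward the center, and without 1328 there were 2. The difference of FN1, fibronectin, became smaller, from -2.22 to -0.52 ± 0.21 (adjusted p of the change = 0.0398), although the center was still higher in each wound, with medians of 3996 and 2724 CPM. POSTN, the matricellular protein periostin, was at 4447 to 8020 CPM in the centers (median 6631) and at 5569 to 15301 CPM at the edges (median 12709), with a log2 fold change of 0.76 ± 0.14 (adjusted p = 0.161). Of 18 genes of the mature dermis 0 passed the threshold, and the median log2 fold change was 0.29. Before adjustment 4 had a p below 0.05 toward the edge and 2 toward the center (6.43% and 6.33% of all genes). Without one wound at a time these numbers were 3 to 7 and 0 to 1. In this list ELN, elastin, was at 95.0 to 416 CPM in the centers (median 124) and at 109 to 808 CPM at the edges (median 571). The edge was higher in 6 of 6 wounds (1.21 ± 0.36, adjusted p = 0.243). EFEMP1, fibulin 3, had its difference reduced from 3.32 to 1.04 ± 0.28 (adjusted p of the change = 0.0406). Of 9 tendon- and cartilage-type matrix genes, 0 passed the threshold, ACAN came closest, and the median was 0.61. A p below 0.05 before adjustment was found for 5 of the 9 toward the edge and 1 toward the center. The 5 became 4 without the wound of animal 1326, 3 without that of 1328, 1323 or 1325, 2 without that of 1327 and 1 without that of 1324.

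Of 13 matrix metalloproteinases and their inhibitors, 9 had been higher in the center and late 0 passed the threshold. MMP9, a gelatinase, was at 162 to 1310 CPM in the centers (median 407) and at 43.9 to 1039 CPM at the edges (median 142). Its log2 fold change was -4.28 on days 15 and 16 and -1.18 ± 0.41 late (adjusted p of the change = 0.0219). MMP1, a collagenase, went from -7.09 to -1.90 ± 0.84 (adjusted p of the change = 0.0295). MMP7, matrilysin, which glands and their ducts make, was at 0 to 0.722 CPM in the centers and at 0.908 to 16.7 CPM at the edges without overlap (4.98 ± 0.99, adjusted p = 0.161), and day 0 skin held 5.34 to 16.7 CPM. Among 13 contractile genes of myofibroblasts and smooth muscle, 5 had a p below 0.05 before adjustment with the center higher and 1 with the edge higher, and 0 passed the threshold. TPM2, a tropomyosin, had medians of 187 and 110 CPM in center and edge (-0.78 ± 0.16, adjusted p = 0.168), and ACTA2, smooth muscle actin, had 285 and 177 CPM (-0.44 ± 0.14, adjusted p = 0.267).

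Of 23 genes of TGF-beta, BMP and WNT signaling, SFRP2 passed the threshold, and in all 5 had a p below 0.05 before adjustment toward the edge and 4 toward the center. The 5 were 3 without the wound of animal 1323, 1324 or 1325. WNT16, a ligand made by keratinocytes (1.02 ± 0.23, adjusted p = 0.174), TGFB2 (0.54 ± 0.15, adjusted p = 0.235) and BMP2 (0.50 ± 0.14, adjusted p = 0.234) were higher at the edge in 6 of 6 wounds. WNT2 (-1.19 ± 0.34, adjusted p = 0.234) and TGFB1 (-0.42 ± 0.13, adjusted p = 0.243) were higher in the center in 6 of 6 wounds. BMP2 did not overlap between the locations, with 6.71 to 8.99 CPM in the centers and 9.78 to 13.2 CPM at the edges. For TGFB2, which was at -0.65 on days 15 and 16, the change toward the edge passed the threshold (adjusted p = 0.0466). Of 20 patterning transcription factors 0 passed, and the median log2 fold change was 0.16. Before adjustment 4 had a p below 0.05 toward the edge and 5 toward the center. Without one wound at a time these numbers were 2 to 5 and 1 to 6. TBX4, a factor of the hindlimb program, was among those higher at the edge in each wound (1.31 ± 0.27, adjusted p = 0.161).

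No cell cycle gene passed the test late: 13 of 14 had been higher in the center on days 15 and 16, and late 0 passed the threshold, 0 had a p below 0.05 before adjustment, and the median log2 fold change was -0.15 against -0.79. DESeq2 gave 0 genes of this list at a p below 0.05 before adjustment as well. The median of the interferon-stimulated list was 0.15 over 14 genes, with 0 past the threshold and 1 gene, IFIT2, at a p below 0.05 before adjustment toward the center. The days went opposite ways: on day 19 alone 8 of the 14 had such a p toward the edge (3.62% of all genes) with a median of 0.90. On day 21 alone 10 of the 14 toward the center (5.42% of all genes) with a median of -0.73. None of the 14 passed the threshold on either day alone or for the change between the days. Erythrocyte (3 tested), skeletal muscle (2) and melanocyte genes (2) were mostly too low to test, and 0 of them passed the threshold.

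DESeq2, which called 493 of the 14350 genes (3.44%; 267 or 1.86% with the edge and 226 or 1.57% with the center higher), gave more calls in several of these groups. It called 7 of the 17 blood vessel and 8 of the 13 macrophage genes with the center higher, 3 of the 8 tested hair follicle genes, 2 of the 5 mast cell and 2 of the 7 Schwann cell genes with the edge higher, and 3 of the 13 contractile genes with the center higher. In the adipocyte, T and NK lymphocyte, neutrophil and interleukin-1, B and plasma cell, interferon-stimulated, erythrocyte, melanocyte, skeletal muscle and cell cycle lists it called 0. Of 6 genes that an earlier analysis of these data had picked for a difference on most days, KRT77 passed the threshold by edgeR, and CYP4A6 (log2 fold change 4.03 ± 0.86, adjusted p = 0.168) and C5orf46 (2.01 ± 0.83, adjusted p = 0.362) were higher at the edge in 6 of 6 wounds. As they were picked on these samples among others, they are not independent evidence of their direction.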

How the data were processed

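RNA was extracted from edge and center punch biopsies of each wound, and poly-A libraries were sequenced as paired reads. The authors deposited whole-number counts per gene, without normalization, for all 150 samples. They also deposited FPKM values, which were not used here. Aligner, counting tool, strand setting and genome build are not given in the sources used here. Genes lie on contigs, and names came from the table (12300 of 30461 genes) or its protein match (9387 genes). Where strand was not used in counting, overlapping antisense genes cannot be told apart, and near-identical paralogs such as the KRT6 genes may share reads.

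The labels give each sample its day, animal, wound and location. The methods name no test between locations. The 12 samples were fitted in edgeR 4.0.16 (R 4.3.3) with TMM scaling and the wound as replicate block, after filterByExpr at its settings of 10 counts in a sample and 15 in all. Its quasi-likelihood test was adjusted by Benjamini and Hochberg's method, at a threshold of 0.05. The labels give both samples of a pair the same animal and wound, and their deviations from the location means correlated with r from 0.158 to 0.588 across genes in the 6 wounds. Periods were compared by an interaction term in a fit over both periods. On days 11 and 13 the counts of an animal's 2 wounds were summed per location. CPM values carry TMM factors over all samples, except for the floor of 3 counts. Distances within a wound used genes with a mean of at least 1 CPM and a pseudocount of 1. Summaries used pandas 2.3.3 and numpy 2.4.6 under Python 3.11.15. The fits were tested on simulated counts.

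Genes named are those past the threshold with a mean of at least 1 CPM and 1 direction in 6 wounds (up to 12 per direction, filled up to 6 by p), IL1B and KRT10, the 5 leading genes of each period comparison, and members of 27 gene lists that passed the threshold or were the most abundant. Other members are named for a p below 0.05 before adjustment, a direction shared by 6 wounds or a change between periods, chosen after their values were seen. The members and lists were chosen with earlier results of these data known. The table holds 344 of the 372 list entries. Alternatives were no replicate block, library size without TMM, DESeq2 1.42.0 and its size factors, other filters, each day alone, other pseudocounts and each wound left out in turn. The p-values of the late comparison measure the spread between 6 wounds, 1 per animal. In the period fits each wound, or each animal's summed wounds, was a block of its own. Those fits thus did not pair the periods by animal, while the permutation test did. The change between the days and the fits of a single day rest on 3 animals a day. Some genes of the lists are counted in the list totals and not reported here by name.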

Additional observations from a re-analysis of the deposited data

Results flagged for a closer look

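Mean levels of the gene lists, the 9 called genes and the distance within a wound were searched for samples far from the other 5, by the gap to the nearest sample as a share of the whole range. Of 73 groups of samples, 6 exceeded Dixon's critical value for 6 samples, where chance gives about 1 in 20. The center of the day 19 wound of animal 1327 was low in suprabasal differentiation genes (share 0.683), with a mean log2(CPM + 1) of 6.23 where the other centers had 8.52 to 9.57. At the edges, 1 sample was high in macrophage genes (share 0.702, 6.11 against 5.31 or less), 1 was low in cell cycle genes (share 0.772, 3.59 against 4.23 or more) and 1 was low in melanocyte genes (share 0.657, 0.60 against 0.91 or more). In the centers, 1 sample was low in neutrophil and interleukin-1 genes (share 0.640, 2.13 against 3.03 or more) and 1 was high in T and NK lymphocyte genes (share 0.632, 3.75 against 3.06 or less).

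Between the days, the difference of edge and center was larger on day 21 for KRT34 (12.25 on the log2 scale, adjusted p = 0.00803 by edgeR) and for S100A3 (6.73, adjusted p = 0.00977). KRT34 could enter that fit through the day 21 edges where it was high. For the interferon-stimulated list, each wound of day 19 was on the side of the edge (0.12 to 1.92, mean of log2(CPM + 1)) and each wound of day 21 on the side of the center (-1.11 to -0.16). The mean difference between the days was -1.70, and it was not tested. For single genes of that list, RSAD2 had the smallest p of the change (log2 difference -3.96, adjusted p = 0.300).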

How the results depend on the processing

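Without the replicate block, which ignores that edge and center come from the same wound, 0 genes differed between the locations on days 19 and 21 (0 in each direction, 1364 below 0.05 before adjustment). The change against days 15 and 16 was then called for 222 genes (153 and 69), that against days 11 and 13 for 1844 (686 toward the edge), and that between days 19 and 21 for 0. The last pair of fits without the block was added after the data were seen. Library size without TMM and DESeq2 size factors each gave 9 genes, all of them the same. Library size alone gave 310 genes toward the edge for the change against days 15 and 16. DESeq2 gave 493 genes (267 and 226), no filter 196 (150 and 46), a mean of at least 1 CPM 37 (33 at the edge), day 19 alone 0 (0 in each direction, 857 before adjustment) and day 21 alone 64 (56 and 8), 5 of them among the 9. Fewer genes tested or fewer samples enter some of these fits, and the cause of the differences was not tested further. With one wound left out, the number of genes on the late days was 0 to 7 (0 to 6 at the edge and 0 to 2 in the center), with 0 without animal 1328 or 1325 and 5 without 1326, 1323 or 1324. It was 0 to 1267 (0 to 605 and 0 to 662) for the change against days 15 and 16 (0 without animal 1325, 7 without 1326, 177 without 1328), 2111 to 3220 (737 to 1472 toward the edge) for that against days 11 and 13, and 0 to 13 (0 to 10 and 0 to 3) for day 21 against day 19 (0 without animal 1323, 1 without 1324, 4 without 1328, 13 without 1325). The 737 came without animal 1325. The narrowing of the distance within a wound was -0.152 to -0.114 and -0.140 to -0.115 without one animal, where an exact permutation test over 5 animals cannot go below 0.0625. None of the named genes reversed while past the threshold under these settings. IL1B did not pass the filter on low counts and has no late test.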
